A study of Mus musculus with 4 samples.

Results

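The chemokines Cxcl9, Cxcl10, Cxcl11 and Cxcl16, which draw T cells to a tissue, were followed across every RNA-seq library of a study on macrophages grown from mouse blood. They were taken by gene symbol on the primary chromosomes and are 4 of the 32617 genes in the deposited count table, and all 4 were among the 14104 genes with enough counts to be tested. In the CAM+mML56 group (2 libraries, called library 1 and library 2), classically activated macrophages were given mML56, which spans residues 1 to 56 of the adhesion protein Ninj1 and stands in for its soluble form. CAM denotes macrophages activated in the same way, with 500 ng/ml LPS and 20 ng/ml IFNγ, without peptide (1 library), and M-CSF denotes macrophages with neither stimulus (1 library). All cells came from pooled blood of C57BL/6J mice 10 to 16 weeks old (60 mice). CD11b-selected monocytes from it were grown for 6 or 7 days in 30 ng/ml M-CSF, the growth factor that turns monocytes into macrophages. The strain label of both peptide libraries reads C57BL/7J. The labels name no peptide dose and no treatment time, and do not say whether the libraries came from separate cultures.

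CXC chemokines are small secreted proteins named for a cysteine pair with one residue between. Cxcl9, Cxcl10 and Cxcl11 are the ligands of CXCR3, a receptor of activated T cells and NK cells, and interferons induce all of them, with Cxcl9 the most dependent on IFNγ. Cxcl16 is different: it is made as a membrane protein, acts in that form as an adhesion molecule and scavenger receptor, and is shed by ADAM proteases as a soluble ligand of CXCR6. In C57BL/6 mice the Cxcl11 gene carries a frameshift, so that its RNA can be counted but does not encode a complete chemokine. The deposited table lists it as a polymorphic pseudogene.

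In mm10 coordinates of the deposited table, Cxcl9 (ENSMUSG00000029417) lies on chromosome 5 from 92321347 to 92328079, Cxcl10 (ENSMUSG00000034855) from 92346638 to 92348889, and Cxcl11 (ENSMUSG00000060183) from 92359544 to 92365485, all on the minus strand. Cxcl16 (ENSMUSG00000018920) lies on chromosome 11 from 70453983 to 70459984, also on the minus strand. The whole of Cxcl10 (2252 bases) and of Cxcl11 (5942 bases) lies inside the span of Art3, a gene of the opposite strand that encodes an ADP-ribosyltransferase family member. Cxcl11 also shares 1582 bases with the pseudogene model Gm2673, and Cxcl16 shares 552 bases with Zmynd15, both on the opposite strand. These are overlaps of gene spans, and whether the transcripts of a pair share sequence was not checked. The library kit was directional, but the strand setting of the counting is unknown, so reads from any shared sequence may not have been told apart.

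Promoter windows of 2 of the 4 genes, Cxcl10 and Cxcl9, were found in the RefSeq table of GRCm38.p6. Both are shown, and no window was found there for Cxcl11 or Cxcl16. Each window runs from 250 bases before the start site to 50 bases from it on, in the direction of transcription (minus strand), and capitals mark matches to the motifs searched. The windows are chr5:92348840-92349139 for Cxcl10 and chr5:92328030-92328329 for Cxcl9.
Cxcl10: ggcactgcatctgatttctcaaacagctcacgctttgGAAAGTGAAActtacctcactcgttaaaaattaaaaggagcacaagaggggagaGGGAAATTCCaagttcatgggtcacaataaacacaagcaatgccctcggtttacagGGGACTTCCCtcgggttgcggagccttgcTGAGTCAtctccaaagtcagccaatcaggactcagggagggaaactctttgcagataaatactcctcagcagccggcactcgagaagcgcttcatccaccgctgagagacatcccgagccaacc
Cxcl9: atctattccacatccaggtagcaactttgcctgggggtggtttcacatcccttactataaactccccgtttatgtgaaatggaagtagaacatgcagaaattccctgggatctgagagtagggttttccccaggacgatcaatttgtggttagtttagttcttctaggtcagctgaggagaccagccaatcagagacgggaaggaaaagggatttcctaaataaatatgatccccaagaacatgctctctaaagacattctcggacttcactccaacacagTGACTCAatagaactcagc
The motifs, searched on both strands, were the core of the interferon-stimulated response element, bound by IRF proteins, TGANTCA, the AP-1 element, and the NF-kB consensus. Cxcl10 held 1 match to the interferon-stimulated element, with its first base 213 bases before the start site, 2 to the NF-kB consensus, at 159 and 103 bases before it, and 1 to the AP-1 element, at 74 bases before it. None of these matches overlapped another. In the Cxcl9 window the only match was an AP-1 element that starts 32 bases into the transcript. Of 32851 promoter windows of this length, 3.44% held the interferon-stimulated element, 4.51% the NF-kB consensus and 7.81% the AP-1 element. These are matches of letters, not measured binding.

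Total estimated counts per library lay between 10334062 and 12842750. Values are CPM, the counts scaled to a common total, of the library size after TMM scaling, a correction for differences in RNA composition. Lars2 and the gene model Gm15662 together took 10.5% and 7.79% of the counts in CAM+mML56, 14.15% in CAM and 6.4% in M-CSF. Among genes with at least 100 counts in all other libraries, 0 were listed at 0 in either CAM+mML56 library, 5 in CAM and 16 in M-CSF. The other libraries include the replicate of a peptide library, while CAM and M-CSF have none, so these counts are not alike. Igtp, an interferon-induced gene with 296 estimated counts in CAM, is among the 16. A zero may be an estimate that failed, and low levels may be too low, or the gene may be off. The counts cannot tell these apart. Of 8 macrophage markers all had counts in each library, and their summed level was 5582 and 4774 CPM in CAM+mML56, 7685 CPM in CAM and 22450 CPM in M-CSF. Lyz2, a lysozyme, made up much of that sum, with 2839 and 2371 CPM in CAM+mML56, 4557 CPM in CAM and 20870 CPM in M-CSF. Of the 9 marker rows 5 rose and 3 fell in CAM against M-CSF, and 2 rose and 4 fell in CAM+mML56 against CAM. In these comparisons 44.4% and 37.7% of all tested genes were called. Cd68 was at only 1.19 CPM in CAM (10.7 estimated counts), against 39 and 32.8 CPM in CAM+mML56 and 13.4 CPM in M-CSF. Csf1r had 29.85 and 41.2 CPM in CAM+mML56, 65.4 CPM in CAM and 399 CPM in M-CSF. The T cell markers Cd3e and Cd3g, the NK cell marker Klrd1 and the neutrophil marker Ly6g were at 0 in all libraries. Other markers of those cells were counted at low levels, among them Cd3d (2.5 and 3.16 CPM in CAM+mML56, 4.22 CPM in CAM and 4.34 CPM in M-CSF), Cd8a (2.75 and 2.41 CPM in CAM+mML56, 4.44 CPM in CAM and 3.24 CPM in M-CSF), Cd4 (at most 11.9 CPM, in M-CSF) and S100a8 (at most 5.63 CPM, in CAM).

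The comparison of CAM+mML56 with CAM asked what the peptide did to the activated cells. Cxcl9 was 4.04-fold lower and Cxcl10 3.38-fold lower in CAM+mML56, Cxcl11 was 1.52-fold lower, and Cxcl16 did not pass the test. Of the 4 genes 3 were called, all of them lower, where 37.7% of all tested genes were called, 20.6% higher and 17.1% lower. In a bulk sample, fewer cells that express a gene and less RNA per cell cannot be told apart.

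Cxcl9, the IFNγ-induced ligand of CXCR3, had 1133 and 877 CPM in CAM+mML56, against 4057 CPM in CAM. Both peptide libraries were far below the CAM library, and the gap between them was 1.29-fold. The log2 fold change was -2.01 (SE 0.203; Benjamini-Hochberg adjusted p = 1.58e-05 by the quasi-likelihood test of edgeR), with a 95% interval of -2.45 to -1.57.

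Cxcl10, which shares the CXCR3 receptor and was first known as a gene induced by IFNγ, had 12.7 and 22.5 CPM in CAM+mML56, against 59.7 CPM in CAM. Its peptide libraries lay 1.77-fold apart, the widest gap of the 4 genes, and both were lower than CAM. The log2 fold change was -1.76 (SE 0.282, edgeR adjusted p = 0.000439), with an interval of -2.37 to -1.15. These levels rest on 148 and 271 estimated counts in CAM+mML56 and 551 in CAM.

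Cxcl11, whose product would share the CXCR3 receptor, had 147 and 190.2 CPM in CAM+mML56, against 257 CPM in CAM. The difference was small, at a log2 fold change of -0.61 (SE 0.18, edgeR adjusted p = 0.0183, interval -0.996 to -0.219). The call was lost with the Wald test of DESeq2 (-0.61, adjusted p = 0.064) and with an offset for GC content and transcript length (-0.47, adjusted p = 0.0971).

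Cxcl16, the membrane-bound ligand of CXCR6, had 653 and 656 CPM in CAM+mML56, against 708 CPM in CAM. The peptide libraries were nearly equal and lay just under the CAM library. The log2 fold change of -0.11 (SE 0.17, edgeR adjusted p = 0.624) did not pass the threshold, and its 95% interval of -0.48 to 0.25 covers changes of modest size in either direction.

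**Figure D1:**
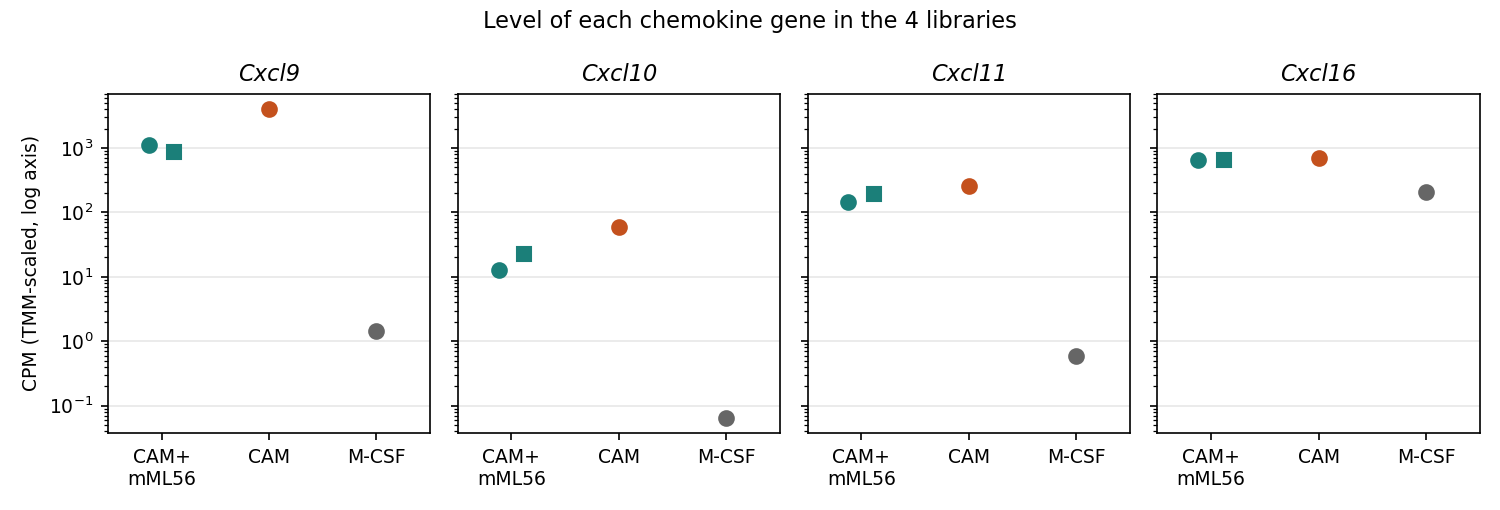
Level of each gene in CPM (TMM-scaled, log axis) in the 2 CAM+mML56 libraries (circle, library 1; square, library 2), the CAM library and the M-CSF library; each point is 1 library. Cxcl9, Cxcl10 and Cxcl11 sit near or below 1 CPM in M-CSF, while Cxcl16 is already at 205 CPM there.

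The comparison of CAM with M-CSF asked what activation did. All 4 genes rose, where 44.4% of tested genes were called, 21.4% higher and 23.0% lower. The CXCR3 ligands were hardly counted in M-CSF, whereas Cxcl16 was well expressed there. With 1 library on each side, the spread was borrowed from the pair of peptide libraries, and CAM and M-CSF were assumed to vary like them.

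Cxcl9 stood at 4057 CPM in CAM and 1.43 CPM in M-CSF, a log2 fold change of 11.46 (SE 0.411, edgeR adjusted p = 7.47e-10). The M-CSF level rests on 22.1 estimated counts, and the exact 95% interval of the CPM ratio, 2845, runs from 1879 to 4540 for counting error alone. In CAM, Cxcl9 held rank 37 among all genes by CPM per kilobase of transcript, against rank 12721 in M-CSF.

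Cxcl10 stood at 59.7 CPM in CAM, against 0.0648 CPM in M-CSF, where it had 1.31 estimated counts. The ratio of 920.5 therefore has an exact counting interval from 164.5 to 36420. The edgeR log2 fold change was 9.63 (SE 0.654, adjusted p = 9.7e-08), a value that depends on the prior count.

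Cxcl11 stood at 257 CPM in CAM and 0.583 CPM in M-CSF, and the M-CSF level rests on 8.55 estimated counts. The log2 fold change was 8.76 (SE 0.355, edgeR adjusted p = 1.29e-09), and the counting interval of the ratio, 440.9, runs from 232 to 965. Gm2673, which overlaps Cxcl11 on the opposite strand, was listed at 0 in both peptide libraries and in CAM, and stood at 0.908 CPM in M-CSF.

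Cxcl16 stood at 708 CPM in CAM and 205 CPM in M-CSF, which is 3.45-fold higher in CAM (log2 fold change 1.79, SE 0.204, edgeR adjusted p = 1.19e-05). Its interval of 1.35 to 2.23 lies well under those of the CXCR3 ligands, which start at 7.99 or above. With its M-CSF level at rank 803 of all genes per kilobase, Cxcl16 was the only one of the 4 that ranked within the first 1000 genes in M-CSF.

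The third comparison set CAM+mML56 against M-CSF and so asked how much of the activated level was left with the peptide. It shares libraries with the comparisons above, so its values are given beside them and not as separate evidence. All 4 genes were higher in CAM+mML56, where 41.2% of tested genes were called, 22.1% higher and 19.0% lower. The log2 fold changes over M-CSF were 9.45 for Cxcl9 (SE 0.384, edgeR adjusted p = 9.32e-10), 7.88 for Cxcl10 (SE 0.664), 8.15 for Cxcl11 (SE 0.344) and 1.67 for Cxcl16 (SE 0.186). The Cxcl10 value depends on the prior count, and its CPM ratios to M-CSF were 196.4 (exact counting interval 34.7 to 7810) and 347.6 (61.9 to 13780). Averaged over the peptide libraries the levels were 1005 ± 181 CPM for Cxcl9, 17.6 ± 6.93 for Cxcl10, 169 ± 30.3 for Cxcl11 and 654 ± 2.33 for Cxcl16 (SD, n = 2).

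**Figure D2:**
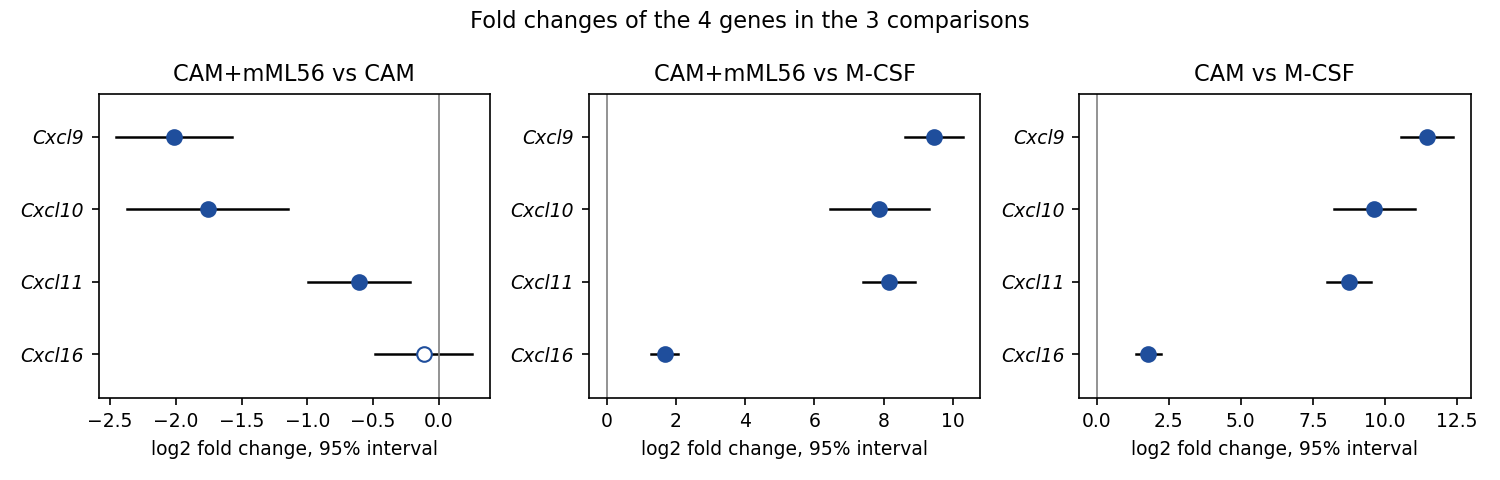
Log2 fold change of each gene (points) with its 95% interval (lines) in the 3 comparisons, from the edgeR fit over all genes; filled points passed the adjusted threshold of 0.05. The intervals of Cxcl9 and Cxcl10 in CAM+mML56 against CAM lie under -1, while that of Cxcl16 spans 0. The scale of the axis differs between panels.

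The make-up of the group changed with the condition. Per kilobase of transcript, with the lengths of the deposited table, Cxcl9 stood at 392 and 304 CPM per kilobase in CAM+mML56, 1404 in CAM and 0.494 in M-CSF. Cxcl16 stood at 242 and 243 CPM per kilobase in CAM+mML56, 262 in CAM and 75.9 in M-CSF. Cxcl9 was thus the highest of the 4 in each activated library, and Cxcl16 in M-CSF. The ratio of Cxcl9 to Cxcl16 per length was 1.62 (exact 95% counting interval 1.58 to 1.67) and 1.25 (1.21 to 1.29) in CAM+mML56, against 5.35 (5.21 to 5.50) in CAM.

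Cxcl11 was next in order, at 38.8 and 50.1 CPM per kilobase in CAM+mML56 and 67.8 in CAM, and Cxcl10 was the lowest, at 5.71 and 10.1 in CAM+mML56 and 26.8 in CAM. The ratio of Cxcl9 to Cxcl11 per length was 10.1 and 6.06 in CAM+mML56, against 20.7 in CAM and 3.21 in M-CSF, where its exact counting interval of 1.42 to 7.92 covers library 2. Both peptide libraries were below CAM in this ratio. The ratio of Cxcl9 to Cxcl10 was 68.7 and 30.1 in CAM+mML56, against 52.5 in CAM. For that pair the peptide libraries lay on either side of CAM, so no shift of one against the other was seen beyond the spread of the libraries. Summed over the 4 genes, the level was 1946 and 1746 CPM in CAM+mML56, 5082 CPM in CAM and 207 CPM in M-CSF.

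**Figure D3:**
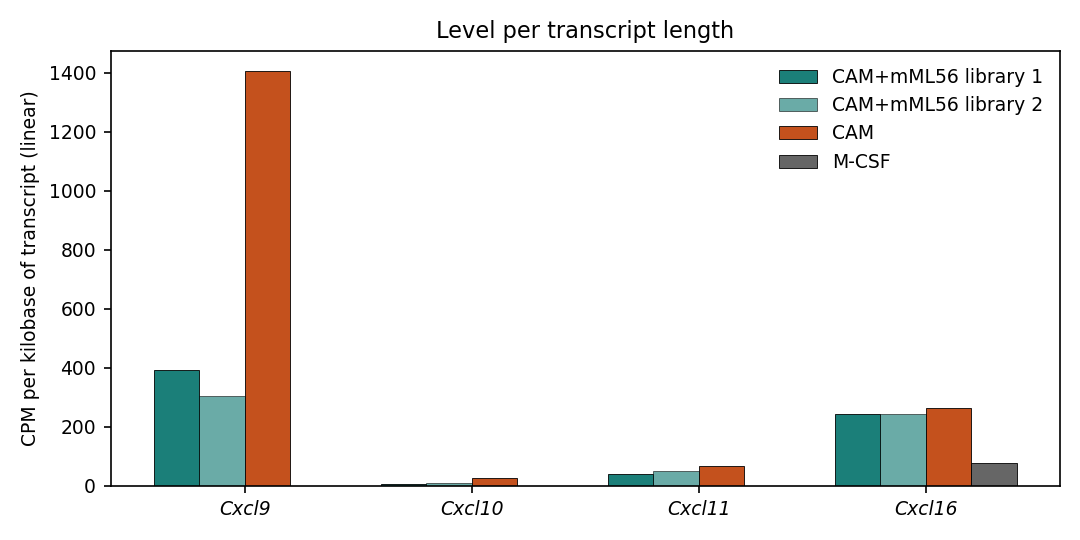
Level of the 4 genes per kilobase of transcript (CPM per kilobase, linear axis from 0), with 1 bar per library in the order CAM+mML56 library 1, CAM+mML56 library 2, CAM and M-CSF. Cxcl9 reaches 1404 CPM per kilobase in CAM and 392 and 304 in CAM+mML56, where it stands closer to Cxcl16.

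The genes around the chromosome 5 cluster were examined because the CXCR3 ligands lie side by side. Within 200 kb of Cxcl10 the table holds 9 other genes, and 8 were tested. In CAM+mML56 against CAM, where 17.1% of all tested genes were lower and 20.6% higher, 5 of these fell and 1 rose, with a median log2 fold change of -1.02, against 0.05 over all tested genes. Those that fell were Uso1, a vesicle-tethering factor (-0.76, edgeR adjusted p = 0.00237), Sdad1 (-1.29), Nup54, a nucleoporin (-2.06), U90926 (-3.61) and Art3 (-1.68). Art3, whose span contains Cxcl10 and Cxcl11, had 2.75 and 2.91 CPM in CAM+mML56, 9.1 CPM in CAM and 0.324 CPM in M-CSF. U90926 was under 3 CPM in every library. With DESeq2 the calls of Art3 (adjusted p = 0.262) and Nup54 (adjusted p = 0.265) were lost. The gene that rose, Ppef2, a phosphatase of sensory cells, was at 1.12 and 1.16 CPM in CAM+mML56 and listed at 0 in CAM, and was also not called by DESeq2 (adjusted p = 0.126).

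In CAM against M-CSF 4 of the 8 rose, namely Uso1, U90926, Sdad1 and Art3, and 2 fell, Ppef2 and Scarb2, a lysosomal membrane protein (-0.71, edgeR adjusted p = 0.0121). Over all tested genes 21.4% were higher and 23.0% lower. U90926 had the highest log2 fold change of the window outside the chemokines, 5.18, which rests on 25.3 estimated counts in CAM and 0.919 in M-CSF, and Art3 was next at 4.77. DESeq2 did not call U90926 (adjusted p = 0.148) or Ppef2 (adjusted p = 0.0723). The rise of Sdad1 (0.89, edgeR adjusted p = 0.0187) was lost with library size only as the scaling (adjusted p = 0.274), with DESeq2 (adjusted p = 0.236) and with the offset (adjusted p = 0.098).

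**Figure D4:**
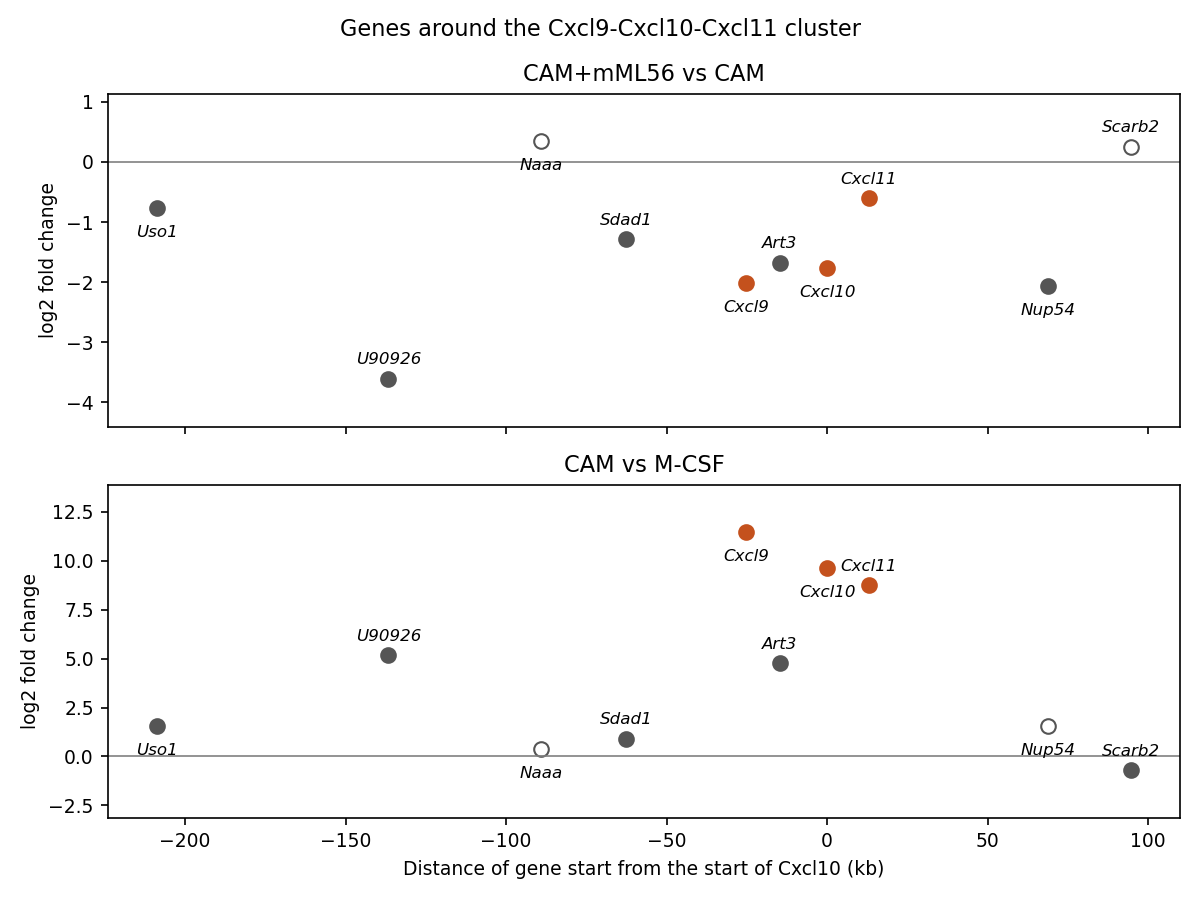
Log2 fold change of the tested genes within 200 kb of Cxcl10, by the distance of each gene's start from the start of Cxcl10 in kilobases, in CAM+mML56 against CAM (upper panel) and CAM against M-CSF (lower panel); filled points passed the threshold and the chemokines are in orange. Ppef2, listed at 0 in CAM, is left out. Cxcl9, Cxcl10 and Cxcl11 stand above their neighbours in the lower panel, at 11.46, 9.63 and 8.76.

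Around Cxcl16, 26 other genes lie within 200 kb and 14 were tested. In CAM+mML56 against CAM 4 of them rose (Arrb2, Mink1, Rnf167 and Eno3) and 2 fell (Zmynd15 and Pld2), 6 called of 14 where 37.7% of all tested genes were. In CAM against M-CSF 2 rose (Zmynd15 and Psmb6, a proteasome subunit) and 5 fell (Pelp1, Arrb2, Rnf167, Gp1ba and Eno3), 7 called of 14 where 44.4% of all tested genes were. Zmynd15, which overlaps Cxcl16, had 16.6 and 20.4 CPM in CAM+mML56, 30.65 CPM in CAM and 17.6 CPM in M-CSF, far below Cxcl16 in each library. Its calls were lost with DESeq2 in both comparisons (adjusted p = 0.298 and 0.275). DESeq2 also did not call Arrb2, Mink1, Rnf167 or Pld2 in CAM+mML56 against CAM, nor Pelp1, Gp1ba or Eno3 in CAM against M-CSF, and Eno3 rounded to a count of 0 in CAM. With the offset the value of Arrb2 in CAM+mML56 against CAM was -0.14 (adjusted p = 0.564), against 0.57 without it, and the calls of Mink1 (adjusted p = 0.301) and Rnf167 (adjusted p = 0.134) were lost.

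Of the 7 receptors and processing enzymes of these chemokines 4 were tested. In CAM+mML56 against CAM 1 fell and the other 3 did not pass, and in CAM against M-CSF 2 rose and 1 fell. Over all tested genes 37.7% and 44.4% were called in these comparisons. Cxcr3 had 0.774 and 0.249 CPM in CAM+mML56, 1.41 CPM in CAM and 5.9 CPM in M-CSF. It fell in CAM against M-CSF (log2 fold change -2.06, edgeR adjusted p = 0.0349), a call lost with DESeq2 (adjusted p = 0.431), without a filter on low counts (adjusted p = 0.055) and with the offset (adjusted p = 0.0733). Cxcr6 had 2.32 and 2.83 CPM in CAM+mML56, 3.79 CPM in CAM and 2.01 CPM in M-CSF, and passed neither test. Ackr3, a decoy receptor that binds Cxcl11, Ackr1, which binds many chemokines, and Dpp4, a peptidase that trims CXCR3 ligands, stayed under 1 CPM in every library and were not tested.

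Adam10 and Adam17 are the proteases known to shed Cxcl16. Adam17 fell in CAM+mML56 against CAM, to 44.9 and 32.1 CPM, against 116 CPM in CAM (log2 fold change -1.59, edgeR adjusted p = 7.15e-05), and stood at 50.4 CPM in M-CSF. Its rise in CAM over M-CSF (1.2, edgeR adjusted p = 0.00114) was lost with the offset (0.73, adjusted p = 0.0561). Adam10 had 34.4 and 30.7 CPM in CAM+mML56, 31.4 CPM in CAM and 18 CPM in M-CSF. Its rise in CAM over M-CSF (0.81, edgeR adjusted p = 0.0205) was lost with library size only as the scaling (0.33, adjusted p = 0.316), with DESeq2 (adjusted p = 0.194) and with the offset (0.16, adjusted p = 0.605).

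Genes of interferon signalling, a list of factors upstream of these chemokines and of feedback inhibitors, mostly rose or did not pass the test with the peptide. Of 15 tested in CAM+mML56 against CAM 6 rose and 1 fell, with a median log2 fold change of 0.32, where 37.7% of all tested genes were called, 20.6% higher and 17.1% lower. The one that fell was Jak2, which with Jak1 serves the IFNγ receptor, with 384 and 367 CPM in CAM+mML56 and 939.5 CPM in CAM (-1.32, edgeR adjusted p = 6.4e-05). Irf1, a transcription factor induced by IFNγ, rose to 2117 and 1896 CPM in CAM+mML56, against 925.5 CPM in CAM (1.12, adjusted p = 0.000962), and Ifnar2, a chain of the type I interferon receptor, rose to 208 and 181 CPM, against 53.8 CPM in CAM (1.85). With the offset for GC content and length 4 of the 15 rose. That setting lost the calls of Socs3, a feedback inhibitor (adjusted p = 0.128), and of Ifnb1 (adjusted p = 0.068), which DESeq2 did not call either (adjusted p = 0.422). Ifnb1 here, and Ifngr1 and Ccl2 below, were named after their values were seen.

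In CAM against M-CSF 11 of the 15 signalling genes rose and 2 fell, with a median of 3.07. Over all tested genes 21.4% were higher and 23.0% lower. The largest rises were those of the feedback inhibitors Socs1, with 143 CPM in CAM and 0.324 CPM in M-CSF (8.74), and Socs3, with 699 CPM in CAM and 2.92 CPM in M-CSF (7.90). Ifnar2 fell (-0.80, edgeR adjusted p = 0.006) and so did Ifngr1, a chain of the IFNγ receptor listed at only 2.17 CPM in CAM and 7.52 CPM in M-CSF, a call lost with DESeq2 (adjusted p = 0.323).

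NF-kB subunits and inhibitors went both ways with the peptide, 4 of 10 up and 4 down. Over all tested genes 20.6% were higher and 17.1% lower. Nfkb1, the p50 precursor, fell to 157 and 132 CPM in CAM+mML56, against 431 CPM in CAM (-1.57, edgeR adjusted p = 2.26e-05), and Rel fell as well (-1.02). Nfkb2, the p52 precursor, rose to 108 and 103 CPM, against 28.3 CPM in CAM (1.90), and Bcl3, a nuclear partner of p50 and p52, rose by 0.86, a call lost with the offset (0.07, adjusted p = 0.745). With that offset 1 of the 10 rose. In CAM against M-CSF, where 21.4% of all tested genes were higher, 9 of the 10 rose and Relb did not pass (0.50, edgeR adjusted p = 0.107). They were led by Tnfaip3 (5.35) and Nfkbia (3.6), feedback inhibitors of the pathway.

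Other genes that interferons switch on showed where the CXCR3 ligands stood. All 20 tested rose in CAM over M-CSF, with a median log2 fold change of 6.31, where 21.4% of all tested genes were higher. The rises were led by Gbp4, a guanylate-binding protein (10.73), and by Igtp, an immunity-related GTPase with 32.1 CPM in CAM that was listed at 0 in M-CSF. In CAM+mML56 against CAM 9 of the 20 fell and 1 rose, with a median of -0.15. Over all tested genes 17.1% were lower and 20.6% higher. Usp18, which removes ISG15 from proteins, fell by 1.81 on the log2 scale, and Oasl1, an antiviral protein, by 1.67. Igtp rose by 0.77 (edgeR adjusted p = 0.0118), a call lost with DESeq2 (adjusted p = 0.145) and with the offset (adjusted p = 0.116), and 3 genes of the list rose when libraries were scaled by their size alone. The values of Cxcl9, -2.01, and of Cxcl10, -1.76, can be set beside the lowest of this list, -1.81. Factors that degrade or stabilise inflammatory mRNAs were also counted. Of 8 tested 2 rose with the peptide and the other 6 did not pass, where 20.6% of all tested genes were higher. Zfp36, which promotes decay of AU-rich transcripts, rose to 743 and 704 CPM in CAM+mML56, against 301 CPM in CAM (1.27, edgeR adjusted p = 0.000185). Zfp36l1, a relative of it, rose by 0.65, a call lost with DESeq2 (adjusted p = 0.0709) and with the offset (adjusted p = 0.122). In CAM against M-CSF 2 of the 8 rose, Zfp36 (1.12) and Zc3h12a, an RNase of inflammatory transcripts (2.77). Another 2 fell, Zfp36l1 (-3.23) and Zfp36l2 (-1.71), where 21.4% of all tested genes were higher and 23.0% lower. With scaling by library size alone 5 of the 8 fell in that comparison.

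The remaining chemokines place the 4 genes among their family. Of 7 other CXC chemokines tested 4 fell and 1 rose in CAM+mML56 against CAM, with a median of -1.19. Over all tested genes 17.1% were lower and 20.6% higher. Cxcl2, an attractant of neutrophils, fell to 7.14 and 8.31 CPM, against 203 CPM in CAM (-4.72, edgeR adjusted p = 1.3e-08), and Cxcl3, of the same kind, fell to 1.29 and 1.58 CPM, against 10.6 CPM (-2.88). Pf4, a platelet chemokine, rose by 2.31 but stayed below its M-CSF level, at 11.8 and 8.65 CPM in CAM+mML56 and 74.3 CPM in M-CSF. DESeq2 called 2 of the 4 that fell.

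Of 10 other chemokines tested, 9 of the CC family and Cx3cl1, 6 fell and 2 rose with the peptide, with a median of -0.90. Over all tested genes 17.1% were lower and 20.6% higher. Ccl22, which attracts regulatory and type 2 T cells through CCR4, fell to 2.15 and 1.75 CPM, against 21.1 CPM in CAM (-3.43), and Ccl3 fell to 64 and 65.1 CPM, against 527 CPM in CAM (-3.03). Ccl5, which attracts T cells, went the other way from Cxcl9, with 6623 and 6254 CPM in CAM+mML56 and 2662 CPM in CAM (1.27, edgeR adjusted p = 0.00108). Ccl8 rose to 42.2 and 41.3 CPM, against 20.5 CPM in CAM (1.03), a call lost with DESeq2 (adjusted p = 0.0665). The fall of Ccl2 (-0.51, edgeR adjusted p = 0.0378) was lost with the size factors of DESeq2 in edgeR (adjusted p = 0.0525) and without a filter on low counts (adjusted p = 0.0793). In CAM against M-CSF 8 of these 10 rose and 1 fell, led by Ccl5 (9.41) and Ccl7 (8.001), and 3 of the 7 other CXC chemokines rose and 2 fell. Over all tested genes 21.4% were higher and 23.0% lower in that comparison.

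**Figure D5:**
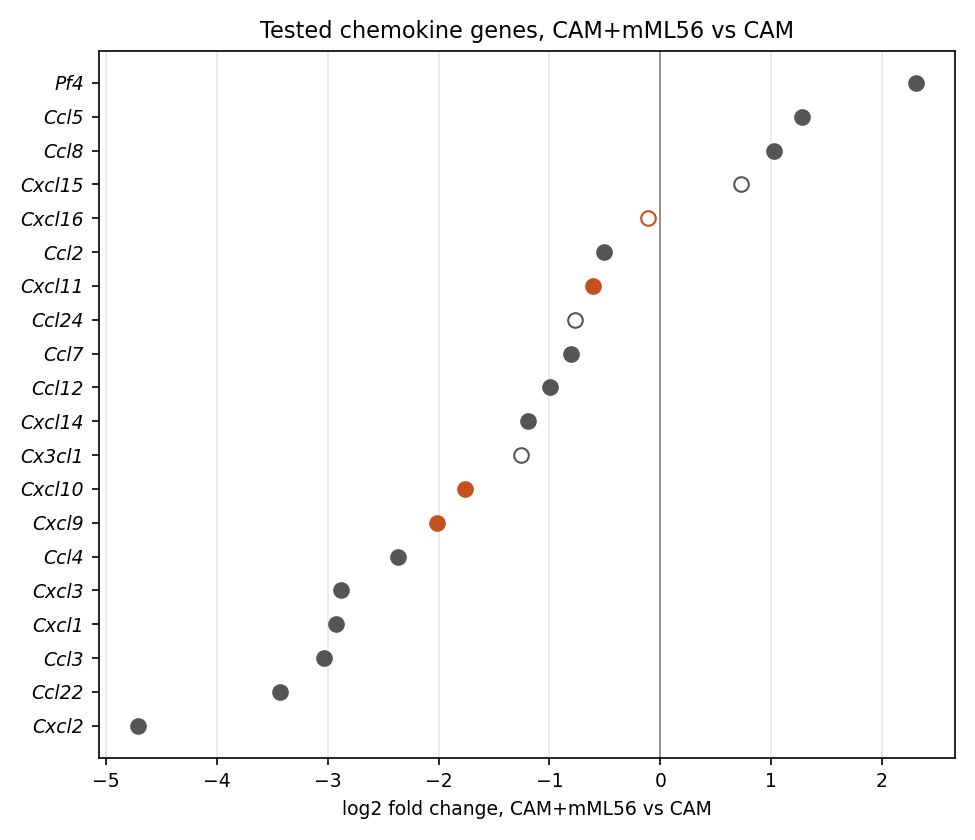
Log2 fold change in CAM+mML56 against CAM of the tested chemokine genes with counts in CAM, in order; filled points passed the edgeR threshold and the 4 genes described here are in orange. Cxcl9 and Cxcl10 lie among the genes that fell, between Cxcl2 at -4.72 and Ccl2 at -0.51, and Ccl5 stands among those that rose.

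The genes whose course over the 4 libraries was most like that of each chemokine were ranked among 8035 genes by Euclidean distance of log2 CPM (0.5 CPM added) after centring each gene on its own mean. With 4 libraries, this is a description of shape only. Nearest to Cxcl9 were Gbp4 (distance 0.926) and Acod1, the enzyme that makes itaconate (1.10). Nearest to Cxcl10 were Inhba, the activin A subunit (0.361), Olfr56 (0.57) and Ch25h, the cholesterol 25-hydroxylase (0.685). Nearest to Cxcl11 were Fpr1, a receptor for bacterial formyl peptides (0.266), Ly75, an endocytic receptor (0.331), and the chemokine Ccl7 (0.332). Nearest to Cxcl16 were Triobp (0.0729), Mafk, a small MAF transcription factor (0.0792), and Acot7, an acyl-CoA thioesterase (0.0853). Between the chemokines themselves the distance was smallest for Cxcl10 and Cxcl11 (1.95) and largest for Cxcl9 and Cxcl16 (7.09). In M-CSF, Cxcl10 (0.0648 CPM) lay below the 0.5 CPM added and Cxcl11 (0.583 CPM) near it, so their distances depend on that value. Cxcl10 was about as far from Cxcl9 (3.69) as from Cxcl16 (3.63), so these distances do not rank how alike the chemokines are.

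Markers of other cells were compared as well, since dendritic cells also make Cxcl9 and Cxcl16. The summed level of 5 dendritic cell markers was 16 and 16.2 CPM in CAM+mML56, 65.5 CPM in CAM and 7.33 CPM in M-CSF. Ccr7 and Xcr1 made up most of this sum in CAM+mML56 and CAM. Both fell in CAM+mML56 against CAM (-2.40 and -2.10) and both rose in CAM over M-CSF (9.01 and 3.52), while Flt3 was listed at 0 in CAM. Zbtb46 (1.98 and 1.91 CPM in CAM+mML56, 1.95 CPM in CAM and 2.85 CPM in M-CSF) and Siglech (0.602 and 1.58 CPM in CAM+mML56, 0.9747 CPM in CAM and 1.62 CPM in M-CSF) passed neither test. The part of these markers in the chemokine values was not tested. Summed T cell markers were at 7.23 and 7.48 CPM in CAM+mML56, 11.7 CPM in CAM and 19.8 CPM in M-CSF, and summed NK cell markers were under 1 CPM in every library. B cell markers summed to 1.29 and 2.16 CPM in CAM+mML56, 2.38 CPM in CAM and 112.6 CPM in M-CSF. Neutrophil markers summed to at most 6.61 CPM, platelet markers to at most 3.36 CPM and fibroblast and endothelial markers to at most 32 CPM.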

How the data were processed

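mRNA was sequenced in 4 libraries, grouped by sample title. What the authors deposited are estimated counts, not normalized, many of them not whole. The submitters' processing notes name kallisto, StringTie 1.3.044 and the build mm10. No version of kallisto, annotation release or strand setting is stated there. The deposited table also gives 1 transcript length per gene, which for the 4 chemokines equals the longest GENCODE M21 transcript.

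Counts were rounded. filterByExpr in edgeR 4.0.16 (R 4.3.3) kept 14104 of 32617 genes, and libraries were TMM-scaled. Groups were compared by the quasi-likelihood F test of edgeR, fitted to all 4 libraries in 3 groups and adjusted by Benjamini-Hochberg over all tested genes, threshold 0.05. Only the pair of peptide libraries informs the spread (1 residual degree of freedom, 11.8 prior degrees of freedom, biological coefficient of variation 0.161). The p-values measure only the spread between those libraries, which may be technical. SEs are |log2 fold change| over the root of F, and intervals use 12.8 degrees of freedom. Counting intervals are exact and cover counting error only.

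The members and the 7 gene lists were chosen with earlier results of these data known. Named were the 4 members, every receptor and processing enzyme, protein-coding neighbours past the threshold, and of each list, in 2 comparisons, up to 2 called genes at each end whose higher group reached 10 CPM, plus the 3 genes nearest to each member, of which 1 is not reported here. Alternatives were other scaling, no filter, DESeq2 1.42.0, an offset for GC content and length, leaving out Lars2 and Gm15662, and leaving out either peptide library.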

Additional observations from a re-analysis of the deposited data

How the results depend on the processing

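The 4 chemokines kept their direction in all 3 comparisons under every alternative run. Of their values 92 were labelled the same, 2 lost their call and 2 moved. Where a test was run, the same meant the same side of the threshold. Without a peptide library it meant a shift under the SD of the peptide pair, or under the SE in CAM against M-CSF. Leaving out a library of a pair shifts the mean by less than that SD, and CAM against M-CSF holds no peptide library. Those labels were nearly fixed in advance and are no check of the values. The fall of Cxcl11 in CAM+mML56 against CAM was no longer past the threshold with DESeq2 (-0.6121) or with the offset for GC content and length (-0.46895), and the cause was not tested. Cxcl16 in that comparison was at -0.375 with the offset (edgeR adjusted p = 0.0988) and at -0.028 with library size only as the scaling, against -0.114 in the main fit. Without either peptide library no residual degree of freedom remained, so these are values with no test: in CAM+mML56 against CAM, Cxcl9 ranged from -2.21 to -1.80, Cxcl10 from -2.19 to -1.41, Cxcl11 from -0.77 to -0.44 and Cxcl16 from -0.11179 to -0.079723, and Cxcl16 in CAM+mML56 against M-CSF ranged from 1.6779 to 1.7439. DESeq2 called 2346 genes in CAM+mML56 against CAM, 3252 in CAM+mML56 against M-CSF and 3437 in CAM against M-CSF, where edgeR called 5320, 5804 and 6269. When libraries were scaled by their size alone, the median log2 fold change of all tested genes moved by -0.48 in CAM against M-CSF and by -0.39 in CAM+mML56 against M-CSF, and the share of calls that were higher was 28.55% and 33.18%, against 48.24% and 53.82% with TMM. In CAM+mML56 against M-CSF that share was 37.56% with the offset and 64.82% with DESeq2. Of the list counts 221 stayed within 1.5 times and 31 moved. No paired analysis was possible because the groups compared share fewer than 2 replicate numbers: CAM and M-CSF have 1 library each, and their columns are numbered 1 and 2. Counting depth limits Cxcl10 in M-CSF, with 1.31 estimated counts.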
